A study of Mus musculus with 16 samples.

Results

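Hearts of mice lacking PPARα in their cardiomyocytes (PPARα-deficient) were compared with hearts of Ppara-flox mice, all given phosphate-buffered saline (PBS) and no endotoxin. The samples were chosen by the genotype and treatment in their labels, which gave 8 of the 16 libraries of the series, 4 of each genotype. All mice were male, on a C57BL/6J background and 8 to 12 weeks old. PBS was injected into the peritoneum and the heart was collected 12 h later. The other 8 libraries, 4 of each genotype, came from mice given lipopolysaccharide (LPS, a bacterial endotoxin) at 5 mg/kg in the same way, and serve here to estimate the spread and for the last comparison. A floxed allele is flanked by loxP sites, between which the recombinase Cre can cut. The labels name neither the Cre line nor the promoter that drives it, and no group carried Cre without loss of PPARα, so effects of losing PPARα and effects of Cre cannot be told apart. Nothing in the labels says that the 4 samples of a group came from separate mice, so the p-values measure only the spread between these samples.

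PPARα, encoded by Ppara, is a nuclear receptor activated by fatty acids and their derivatives. It pairs with a retinoid X receptor on DNA and switches on genes that take up, activate and oxidise fatty acids. It is abundant in tissues that burn much fat, such as liver, brown fat and heart, and fatty acids are the main fuel of the adult heart muscle.

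Total RNA was sequenced from stranded libraries, and the deposited tables hold estimated counts per gene symbol. They summed to 67480516 to 75436023 per PBS library, over 20762 to 21274 symbols with a count. Because multiples of 4 were over-represented among low values, a read pair was taken to count about 4, which gives 16870129 to 18859005 read pairs per library. Mitochondrially encoded transcripts were 22.5% to 29.8% of the total. A label on RNA extraction speaks of pancreatic islets, but the islet genes Ins1 and Ins2 were at 0 in all 8 libraries and Myh6, the main cardiac myosin heavy chain gene, was at 30292 to 37647 CPM. CPM is the usual scaling of counts to a common library size, here after TMM normalization, and levels are given in the order of replicates 1 to 4. In tissue RNA, fewer cells of a type and less RNA per cell cannot be told apart. Each gene was tested with edgeR's quasi-likelihood test and was called where its p-value, adjusted by Benjamini-Hochberg over all 18713 genes tested, was under 0.05. Adjusted p-values are from that test unless another tool is named. Fold changes are PPARα-deficient minus Ppara-flox on the log2 scale, so a negative value is a lower level without PPARα. The value after ± is the standard error (SE) of a fold change or the SD (n = 4) of a level.

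Ppara itself (chr15:85734983-85802819, plus strand) was at 59.3, 37.4, 47.7 and 56.4 CPM in the Ppara-flox libraries and at 11.4, 17.6, 15.1 and 14.2 CPM in the PPARα-deficient ones. The groups did not overlap, and every PPARα-deficient library kept some Ppara RNA (log2 fold change -1.79 ± 0.28, adjusted p = 0.00287). The counts cover the whole gene and do not isolate a floxed exon, and the tissue holds cells other than cardiomyocytes. Of the 28 measured genes of the PPAR family, its retinoid receptor partners and its coregulators, Ppara was the single call (0.433% of all genes tested were called), and the median was -0.05. Ppard, the PPAR form found in most tissues including muscle, had a log2 fold change of 0.06 ± 0.16 (95% interval -0.29 to 0.40). Pparg, best known from fat cells, had 0.21 ± 0.13 (-0.07 to 0.49), and Rxra, a retinoid partner, had -0.11 ± 0.06 (-0.24 to 0.02). The 3 tested protein-coding genes nearest to Ppara on each side of it had fold changes from -0.15 to 0.15, and the 11 tested within 500 kb from -0.44 to 0.15. Of all 12 other genes tested within 500 kb, 0 were called by edgeR and 0 by DESeq2, and 0 had an unadjusted p under 0.05.

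Over the whole genome 75 genes (0.401% of the 18713 tested) fell and 6 (0.0321%) rose in PPARα-deficient hearts. Before adjustment 574 genes (3.07%) were lower and 468 (2.5%) higher at a p under 0.05, together 5.57%, and the median log2 fold change of all genes was 0.0048. The genes that fell had a median log2 fold change of -0.85, a 1.80-fold drop, with 33 lower by at least 2-fold and 10 by less than 1.5-fold. In all 75 and all 6 the libraries of the genotypes did not overlap, which was so for 746 (3.99%) of the genes tested. Protein-coding genes made up 67 of the 75. The lists of fatty acid and lipid genes, 7 lists with 139 genes tested, held 29 of the 75, and 40 were in no list. As 0.433% of all genes were called in either direction, 0 calls in a list says little about its genes.

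**Figure D1:**
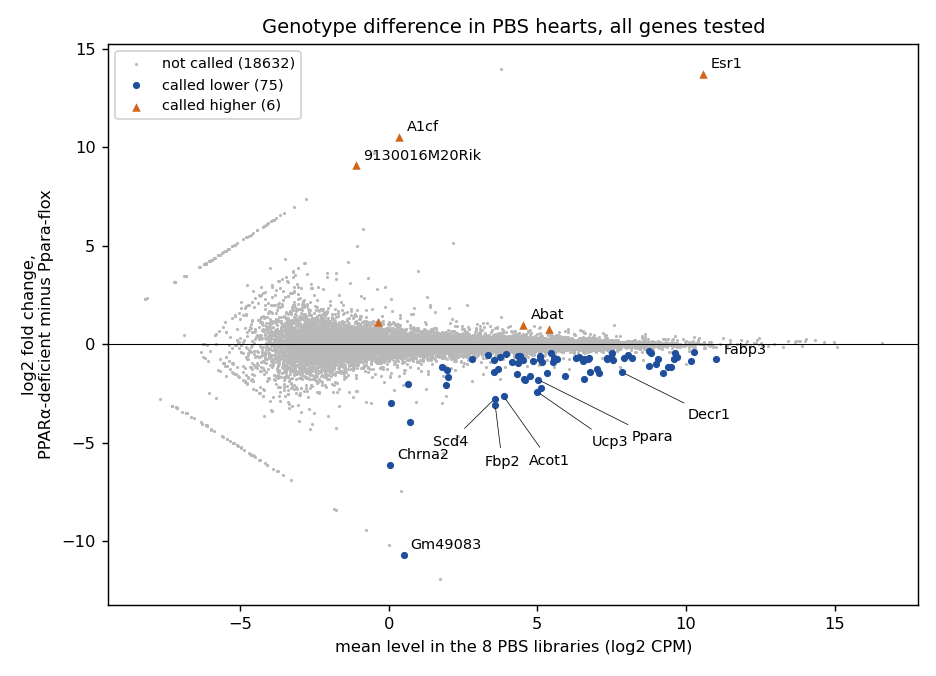
Each point is 1 of the 18713 genes tested, with its mean level in the 8 PBS libraries on the horizontal axis (log2 CPM) and its log2 fold change, PPARα-deficient minus Ppara-flox, on the vertical axis. The 75 genes that fell (blue circles) lie mostly between 0 and -3, Esr1 (orange triangle) stands at 13.73, and the uncalled grey point level with it is Gm20716.

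That grey point is a gene model at 0 CPM in all Ppara-flox libraries and at 32.5, 0, 0 and 76.5 CPM in the PPARα-deficient ones (Gm20716, adjusted p = 0.757, but called by DESeq2). Genes at 0 in a library and at 10 CPM or more in another of the same group numbered 10, of which edgeR called 0 and DESeq2 called 1 higher and 1 lower.

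PPARα with its retinoid partner binds a pair of AGGTCA hexamers in direct repeat with a single base between them, an arrangement known as DR1. RefSeq promoters (GRCm38.p6, 250 bases before to 50 after a start site) were found for 57 of the 75 genes that fell. The exact repeat AGGTCANAGGTCA, searched on both strands, was in 13 of 32851 promoters (0.0396%) and in that of 1 gene that fell, Igsf23. The hexamer AGGTCA, also on both strands and including copies inside a repeat, was in 9 of the 57 (15.8%), against 15.5% of the 12305 tested genes with a promoter and 16.3% of all promoters. These 9 were Acadm, Acadvl, Cat, Igsf23, Ilvbl, Pfkfb1, Plin5, Psap and Ucp3. Of the 6 genes that rose 3 had a promoter in this set, and none of these 3 genes held it. For the hexamer the share among genes that fell was thus near that of all genes. The repeat was in 1 of the 57 (1.75%) against 7 of the 12305 tested genes (0.0569%), a share that rests on a single gene. A match describes letters, not a bound site. The promoters of Igsf23 (chr7:19950694-19950993, minus strand), Acadvl (chr11:70015379-70015678, minus strand), Plin5 (chr17:56117249-56117548, minus strand) and Ucp3 (chr7:100472741-100473040, plus strand) are printed to show the repeat and the hexamers in place. Each is written 5′ to 3′ on the strand of its gene with the matches in capitals.
Igsf23: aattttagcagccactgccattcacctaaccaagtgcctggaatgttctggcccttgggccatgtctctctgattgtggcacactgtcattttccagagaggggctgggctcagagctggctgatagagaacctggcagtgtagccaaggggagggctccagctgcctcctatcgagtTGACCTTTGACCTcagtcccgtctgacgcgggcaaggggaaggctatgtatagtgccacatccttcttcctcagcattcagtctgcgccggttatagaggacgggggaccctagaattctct
Acadvl: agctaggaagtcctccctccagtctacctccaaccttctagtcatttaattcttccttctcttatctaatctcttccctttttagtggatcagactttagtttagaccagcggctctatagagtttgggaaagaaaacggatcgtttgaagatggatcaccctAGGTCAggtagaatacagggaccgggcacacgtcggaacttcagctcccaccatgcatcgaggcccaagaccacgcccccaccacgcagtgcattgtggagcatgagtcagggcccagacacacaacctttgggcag
Plin5: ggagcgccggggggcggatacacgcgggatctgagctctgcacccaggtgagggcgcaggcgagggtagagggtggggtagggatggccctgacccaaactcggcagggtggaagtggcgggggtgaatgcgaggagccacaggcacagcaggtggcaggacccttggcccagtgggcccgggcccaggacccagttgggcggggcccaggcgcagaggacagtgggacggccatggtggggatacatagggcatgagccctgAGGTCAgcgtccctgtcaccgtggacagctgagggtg
Ucp3: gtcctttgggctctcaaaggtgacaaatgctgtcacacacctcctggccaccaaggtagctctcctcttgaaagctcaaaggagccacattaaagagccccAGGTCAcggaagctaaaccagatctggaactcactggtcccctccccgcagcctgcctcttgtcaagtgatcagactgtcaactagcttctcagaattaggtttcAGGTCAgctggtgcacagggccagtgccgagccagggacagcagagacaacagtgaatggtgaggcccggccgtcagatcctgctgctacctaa
The repeat in Igsf23 lies on the opposite strand, as TGACCTTTGACCT, and begins at position -72 from the start site. The hexamer begins at position -87 in Acadvl, at 14 in Plin5 and, for the more distant of 2 copies, at -149 in Ucp3.

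Genes of mitochondrial fatty acid oxidation gave more calls than any other list. Of 26 genes 18 fell and 0 rose, with a median log2 fold change of -0.63 (21 were lower before adjustment, 20 by DESeq2 and 17 by limma-voom). Their summed level was 10920.2 to 13069 CPM in Ppara-flox and 7208 to 7746 CPM in PPARα-deficient libraries. Of the 18 calls 15 held in all 8 fits that leave out a single PBS library. The list runs from activation of the fatty acid to the hand-over of its electrons, and genes fell along its whole length.

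Fatty acids are first bound to coenzyme A and then carried into the mitochondrion on carnitine. Acsl1 (chr8:46471037-46536051), the main long-chain acyl-CoA synthetase of the heart, was at 846, 885, 929 and 1059 CPM in Ppara-flox and at 282, 418, 510.0 and 464 CPM in PPARα-deficient hearts (-1.15 ± 0.15, adjusted p = 0.000476). Cpt1b (chr15:89416405-89425863), the muscle carnitine palmitoyltransferase that controls entry, was at 573, 719, 697 and 685 CPM against 374, 411, 414 and 409.7 CPM (-0.73 ± 0.08, adjusted p = 6.87e-05). The carnitine-acylcarnitine carrier Slc25a20 (chr9:108662088-108684641) was at 158, 208, 206 and 218 CPM against 62.2, 64.1, 72.98 and 83.6 CPM (-1.48 ± 0.11, adjusted p = 8.93e-07). This was the lowest fold change of the list. Cpt2 (chr4:107903981-107923610), which returns the acyl group to coenzyme A inside the mitochondrion, fell from 182 ± 18.99 to 76.5 ± 6.28 CPM (-1.25 ± 0.10). In all of these the highest PPARα-deficient library lay below the lowest Ppara-flox library.

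Slc22a5, the carnitine transporter of the cell membrane, was at 21.2, 24.2, 24.5 and 34.4 CPM against 17.6, 15.6, 18.1 and 16.9 CPM (-0.61 ± 0.13, adjusted p = 0.0491). Its call held in 1 of the 8 left-out fits, the one without Ppara-flox replicate 1 (adjusted p up to 0.182 in the others), and was missed by limma-voom (adjusted p = 0.0537). Cpt1a, the liver form of the entry enzyme, was not called (-0.17 ± 0.11, 95% interval -0.39 to 0.06). Nor was Crat, which makes acetylcarnitine (-0.295 ± 0.08, adjusted p = 0.191). Mlycd, which breaks down malonyl-CoA, the inhibitor of fatty acid entry, fell from 119.9 ± 20.1 to 66.7 ± 5.65 CPM (-0.84 ± 0.15, adjusted p = 0.0112). Its call was lost without Ppara-flox replicate 3 or 4 or PPARα-deficient replicate 1 (adjusted p up to 0.0591).

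The acyl-CoA dehydrogenases act on chains from very long to short. Acadvl (chr11:70010183-70015411), for very long chains, was at 869, 1048, 1040.0 and 1000.2 CPM in Ppara-flox and at 425, 419.6, 449.5 and 476 CPM in PPARα-deficient hearts, a 2.24-fold drop (-1.16 ± 0.07, adjusted p = 1.62e-07). Acadl, for long chains, fell from 913 ± 53.7 to 679.5 ± 34.3 CPM (-0.43 ± 0.07, adjusted p = 0.00264). Acadm, for medium chains, fell from 997 ± 69.01 to 648 ± 20.2 CPM (-0.62 ± 0.07, adjusted p = 6.72e-05), and Acads, for short chains, from 131 ± 15.5 to 80.1 ± 11.3 CPM (-0.71 ± 0.12, adjusted p = 0.00650). These 4 dehydrogenases therefore fell together. The remaining family members in the list, Acad10, Acad11 and Acad12, were not called and their libraries overlapped.

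After the first dehydrogenation the genes differed in response. Hadha (chr5:30118304-30155162) and Hadhb (chr5:30155248-30184593) encode the subunits of the trifunctional protein and lie 85 bases apart on opposite strands. Hadha was at 1325, 1481, 1499 and 1619.7 CPM in Ppara-flox and at 817, 849, 814 and 869 CPM in PPARα-deficient hearts (-0.82 ± 0.06, adjusted p = 1.74e-06). Hadhb was at 878, 902, 989 and 1125 CPM against 567, 558, 604 and 623 CPM (-0.73 ± 0.08, adjusted p = 3.66e-05). The thiolase Acaa2 fell from 687 ± 84.9 to 338 ± 15.7 CPM (-1.02 ± 0.08, adjusted p = 2.43e-06) and the dehydrogenase Hadh from 524 ± 46.5 to 387 ± 15.5 CPM (-0.44 ± 0.07, adjusted p = 0.00606). Echs1, the short-chain hydratase that acts between dehydrogenations, was at 264, 268, 285 and 254 CPM against 296, 269, 276 and 252 CPM. The groups overlapped, and the 95% interval of its log2 fold change was -0.12 to 0.18.

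Unsaturated fatty acids need auxiliary enzymes, and these fell too. Decr1 (chr4:15917240-15945507), the dienoyl-CoA reductase, was at 299, 333, 331 and 385 CPM in Ppara-flox and at 122, 119, 122 and 141 CPM in PPARα-deficient hearts, a 2.68-fold drop (-1.42 ± 0.08, adjusted p = 7.93e-08). The isomerase Eci2 fell from 102 ± 4.995 to 65.6 ± 3.24 CPM (-0.63 ± 0.07, adjusted p = 0.000131). Its relative Eci1 fell from 210.0 ± 19.2 to 157 ± 8.54 CPM (-0.42 ± 0.09, adjusted p = 0.0376), a call that held in 1 of the 8 left-out fits, the one without Ppara-flox replicate 1 (adjusted p up to 0.150 in the others). Electrons leave the pathway through the electron transfer flavoprotein and its dehydrogenase. Etfdh (chr3:79603788-79629500), the dehydrogenase, was at 503, 575, 590.3 and 656 CPM against 271, 271, 272 and 279.9 CPM, with hardly any spread among the deficient libraries (-1.09 ± 0.08, adjusted p = 8.07e-07). The subunits of the flavoprotein were not called, with -0.24 ± 0.06 for Etfa (adjusted p = 0.203) and -0.39 ± 0.11 for Etfb (adjusted p = 0.282), although in both the genotypes did not overlap.

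**Figure D2:**
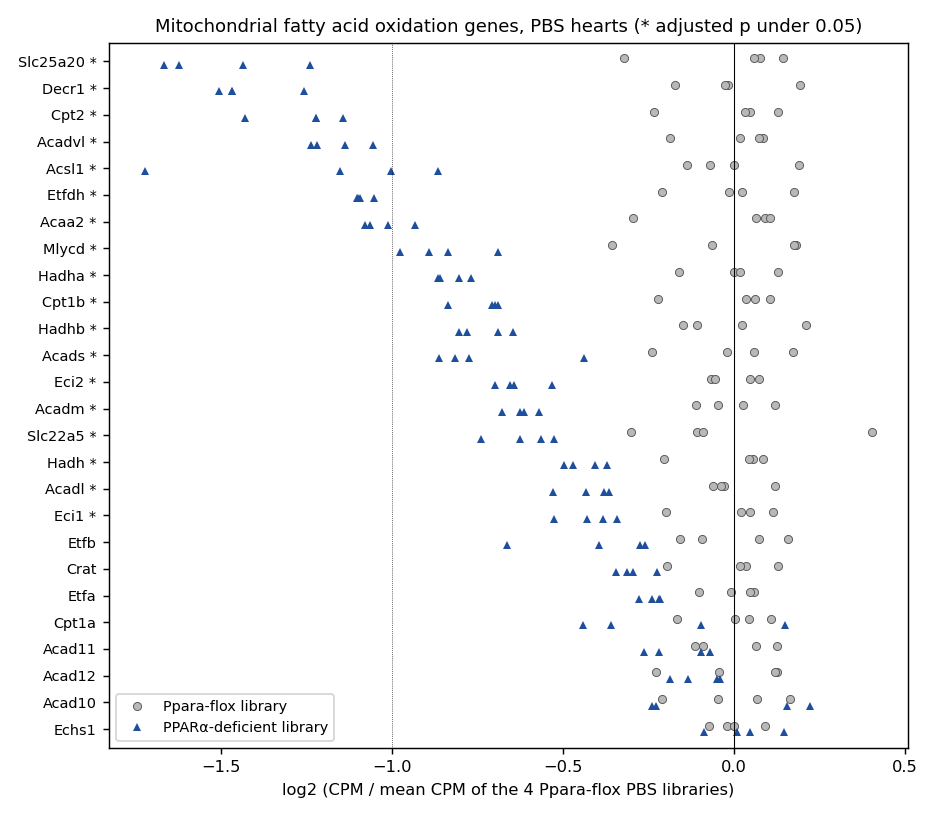
The 26 genes of mitochondrial fatty acid oxidation, 1 row each, with every PBS library plotted as log2 of its CPM over the mean CPM of the 4 Ppara-flox PBS libraries (grey circles Ppara-flox, blue triangles PPARα-deficient, dotted line 2-fold lower, asterisk adjusted p under 0.05). In the 18 rows with an asterisk every triangle lies left of every circle, while in the rows of Cpt1a, Acad10, Acad11, Acad12 and Echs1 they overlap.

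Of 24 peroxisomal genes 3 fell and 0 rose, with a median of -0.08 (8 were lower before adjustment and 6 by DESeq2). Peroxisomes shorten the longest fatty acids before mitochondria finish them. Ech1 (chr7:28825217-28832247), a dienoyl-CoA isomerase, was at 739, 905, 917 and 901 CPM in Ppara-flox and at 316, 283, 309.8 and 361 CPM in PPARα-deficient hearts (-1.45 ± 0.10, adjusted p = 2.55e-07). Abcd3, a fatty acid transporter of the peroxisome membrane, fell from 98.8 ± 3.92 to 60.03 ± 2.94 CPM (-0.72 ± 0.07, adjusted p = 3.66e-05). Catalase (Cat), which destroys hydrogen peroxide made there, was at 187, 199, 235 and 257 CPM against 121, 124, 160.0 and 154 CPM (-0.65 ± 0.13, adjusted p = 0.0413). That call held in 2 of the 8 left-out fits, those without Ppara-flox replicate 1 or PPARα-deficient replicate 3 (adjusted p up to 0.170 in the others). Pex11a, which takes part in peroxisome division, was not called (-0.68 ± 0.17, adjusted p = 0.130).

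Acyl-CoA thioesterases free fatty acids from coenzyme A, and 2 of the 11 tested fell. The median was -0.13, and 10 had a negative fold change (4 were lower and 0 higher before adjustment, 3 lower by DESeq2). Acot1 (chr12:84009490-84018371), the cytosolic form, was at 16.5, 28.5, 21.5 and 33.9 CPM in Ppara-flox and at 3.396, 3.79, 3.39 and 5.602 CPM in PPARα-deficient hearts, a 6.21-fold drop (-2.63 ± 0.26, adjusted p = 2.15e-05). Acot2 (chr12:83987861-83993873), the mitochondrial form next to it, was at 64.2, 94.1, 90.5 and 117 CPM against 27.5, 29.4, 28.5 and 33.2 CPM (-1.63 ± 0.14, adjusted p = 4.83e-06). Their transcripts are 95.8% identical over 826 bases, so how counts were split between them is uncertain. The adjacent family members Acot3 (-1.299 ± 0.41, adjusted p = 0.422) and Acot4 (-0.88 ± 0.23, adjusted p = 0.190) were not called.

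Of 20 genes of fatty acid uptake and binding 2 fell, with a median of -0.08 (6 were lower and 1 higher before adjustment, 3 lower by DESeq2). Fabp3 (chr4:130308595-130315463), the fatty acid binding protein of heart muscle, was at 2142, 2801, 2797 and 2653 CPM in Ppara-flox and at 1465, 1544, 1638 and 1549 CPM in PPARα-deficient hearts (-0.75 ± 0.12, adjusted p = 0.00559). Acsf2 (chr11:94557102-94601871), a mitochondrial acyl-CoA synthetase, was at 37.2, 40.8, 34.03 and 48.5 CPM against 13.7, 14.6, 12.2 and 12.6 CPM (-1.596 ± 0.14, adjusted p = 4.83e-06). Cd36, the membrane protein through which muscle takes up fatty acids, was not called (-0.34 ± 0.10, adjusted p = 0.268). Among 28 genes of lipid droplets and triglyceride turnover 1 fell (0.401% of all genes tested fell), and the median was -0.12. Before adjustment 7 were lower and 0 higher, and DESeq2 called 3 lower. The called gene was Plin5 (chr17:56111601-56117596), which coats droplets beside mitochondria. It was at 115, 155, 164 and 153 CPM against 30.3, 42.7, 44.03 and 59.5 CPM, a 3.33-fold drop (-1.74 ± 0.21, adjusted p = 0.000204). Pnpla2, the triglyceride lipase on those droplets, was not called (-0.405 ± 0.12, adjusted p = 0.385).

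Among 23 genes of fatty acid synthesis, desaturation and elongation 2 fell, with a median of -0.03 (5 were lower and 1 higher before adjustment, 2 lower and 1 higher by DESeq2). Scd4 (chr19:44333092-44346743), a stearoyl-CoA desaturase, was at 14.04, 18.6, 23.2 and 26.98 CPM in Ppara-flox and at 4.07, 3.05, 2.71 and 2.41 CPM in PPARα-deficient hearts (-2.76 ± 0.34, adjusted p = 0.000272). Its relative Scd1 was not called (-0.43 ± 0.12, adjusted p = 0.225). Malic enzyme (Me1), a source of NADPH for synthesis, fell from 118 ± 9.07 to 70.8 ± 5.44 CPM (-0.73 ± 0.09, adjusted p = 0.000354). In ketone metabolism 1 of 8 genes fell, the thiolase Acat1 (479 ± 28.7 to 384 ± 12.7 CPM, -0.32 ± 0.06, adjusted p = 0.0170), and that call held in 2 of the 8 left-out fits, those without replicate 1 of either genotype (adjusted p up to 0.0835 in the others). Cholesterol synthesis and uptake had 0 calls among 24 genes (2 higher and 1 lower before adjustment, 1 each way by DESeq2, 0 by limma-voom).

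Of 33 genes of glucose uptake, glycolysis, gluconeogenesis and glycogen 2 fell (6.06%, against 0.401% of all genes tested). DESeq2 called the same number lower. Fbp2 (chr13:62836877-62858422), the muscle fructose bisphosphatase, was at 14.6, 24.8, 20.5 and 25.5 CPM in Ppara-flox and at 1.69, 3.01, 1.94 and 3.66 CPM in PPARα-deficient hearts, a 8.2996-fold drop (-3.05 ± 0.31, adjusted p = 3.19e-05). Pfkfb1 (chrX:150588229-150643878), which makes and removes an activator of phosphofructokinase, was at 3.63, 5.15, 9.06 and 6.56 CPM against 2.61, 1.35, 1.94 and 1.71 CPM (-1.68 ± 0.29, adjusted p = 0.00877). Pyruvate dehydrogenase and its kinases had 0 calls among 14 genes (3 higher and 2 lower before adjustment, 0 by DESeq2 and by limma-voom). Pdk4, a kinase that keeps pyruvate from being oxidised, was at 878, 1131, 1157 and 2311 CPM against 583, 516, 772 and 907 CPM. Ppara-flox replicate 4 stood well above the rest, the groups overlapped, and Pdk4 was not called (-0.98 ± 0.28, adjusted p = 0.276).

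Of 45 mitochondrial carriers and uncoupling proteins 3 fell, which were Slc25a20, Ucp3 and Slc25a22. Ucp3 (chr7:100472990-100486432), the uncoupling protein of muscle, was at 27.8, 57.2, 56.2 and 73.3 CPM in Ppara-flox and at 9.34, 5.02, 10.1 and 16.1 CPM in PPARα-deficient hearts, a 5.29-fold drop (-2.403 ± 0.36, adjusted p = 0.00215). Slc25a22, a glutamate carrier, fell from 46.8 ± 10.7 to 25.2 ± 2.22 CPM (-0.89 ± 0.14, adjusted p = 0.00461). Genes that act after fatty acid oxidation gave 0 calls. The tricarboxylic acid cycle had 0 of 21 (median -0.03), nuclear subunits of oxidative phosphorylation 0 of 74 (median -0.04), genes of the mitochondrial genome 0 of 13 (median 0.18) and mitochondrial ribosomal proteins 0 of 78 (median 0.04). Of these 186 genes 4 had an unadjusted p under 0.05, and DESeq2 and limma-voom called 0. Over all genes tested 0.433% were called and 5.57% had an unadjusted p under 0.05, so 0 calls here is near the share of all genes.

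Among 28 genes of calcium handling and ion channels 1 fell, Scn4b (chr9:45138395-45154152), a regulatory subunit of voltage-gated sodium channels. It was at 24.99, 37.1, 38.2 and 50.3 CPM in Ppara-flox and at 6.27, 6.23, 10.98 and 19.2 CPM in PPARα-deficient hearts (-1.82 ± 0.30, adjusted p = 0.00606). The highest deficient library, replicate 4, was close to the lowest control, replicate 1. Among 22 antioxidant genes 1 fell, Cat, and of 24 genes that break down branched-chain amino acids, propionate and GABA 1 rose, Abat. The lists of the sarcomere (23 genes), fetal and hypertrophy genes (13), the integrated stress response (21), the p53 response (22), the clock (19), immediate early genes (16), interferon genes (36), extracellular matrix (26) and cell cycle (22) had 0 calls. Of these 198 genes 13 had an unadjusted p under 0.05, DESeq2 called 2 higher and 1 lower, and limma-voom called 1 higher. Over all genes tested 0.433% were called and 5.57% had such a p, so these counts are near the shares of all genes.

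**Figure D3:**
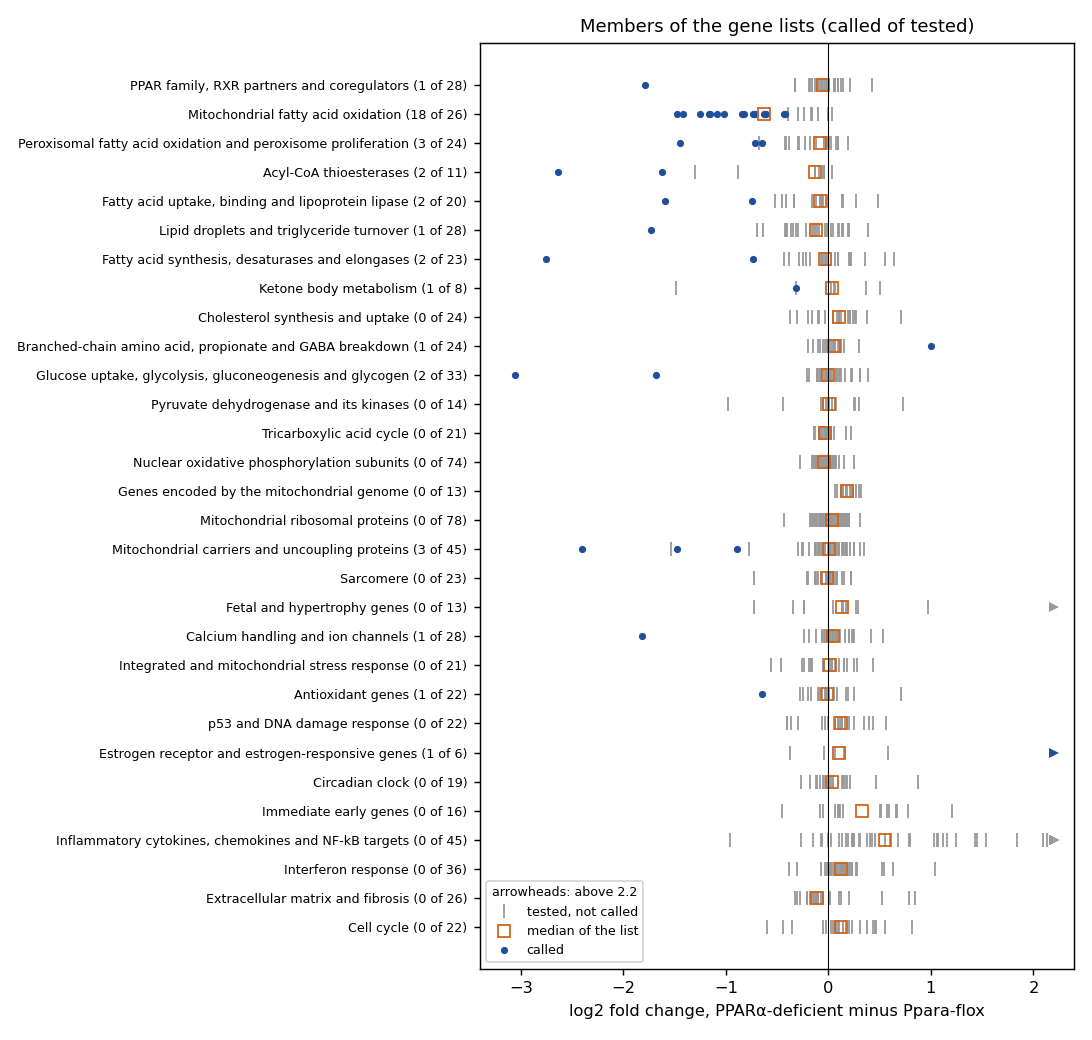
Log2 fold change, PPARα-deficient minus Ppara-flox, of every tested member of the 30 pathway lists, with called members in blue, the others in grey, the median of each list as an open square and the number called of those tested beside each name (8 entries above 2.2 are arrowheads at the edge). The median of the mitochondrial fatty acid oxidation list lies at -0.63 and that of the inflammatory list at 0.55, while those of most lists lie near 0.

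Of the genes that fell, 40 were in no list. Lgals4 (chr7:28833854-28841708), a galectin that binds sugar chains, was at 38.8, 58.9, 63.5 and 67.9 CPM in Ppara-flox and at 11.8, 12.8, 10.1 and 14.9 CPM in PPARα-deficient hearts, a 4.62-fold drop (-2.21 ± 0.20, adjusted p = 9.23e-06). Tesc (chr5:118027743-118061878), a calcium-binding protein, was at 50.04, 66.7, 62.6 and 57.6 CPM against 20.996, 20.3, 22.3 and 23.3 CPM (-1.45 ± 0.13, adjusted p = 6.16e-06). Dock8, an exchange factor for small GTPases known from immune cells, fell from 16.9 ± 3.71 to 6.38 ± 1.48 CPM (-1.404 ± 0.23, adjusted p = 0.00559). Igsf23, of the immunoglobulin superfamily, was at 2.45, 3.77, 1.65 and 2.26 CPM against 0.454, 0.928, 0.705 and 0.445 CPM (-1.996 ± 0.32, adjusted p = 0.00471). Chrna2 (chr14:66135039-66152948), a nicotinic acetylcholine receptor subunit, was at 0.640, 2.27, 2.84 and 2.36 CPM against 0, 0, 0.0553 and 0.0575 CPM. Over the groups this is about 146 read pairs against 2, a ratio of 73.7 with an exact 95% counting interval of 20.03 to 614.1 (adjusted p = 0.000878, but 0.200 by limma-voom).

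P3h4 (chr11:100408456-100414836) and Fkbp10 (chr11:100415697-100424824), proteins of the endoplasmic reticulum that take part in collagen modification, lie 860 bases apart on opposite strands. P3h4 was at 24.7, 31.8, 29.5 and 32.96 CPM in Ppara-flox and at 10.6, 11.7, 10.4 and 8.603 CPM in PPARα-deficient hearts (-1.53 ± 0.15, adjusted p = 1.76e-05). Fkbp10 was at 16.5, 19.1, 18.7 and 17.7 CPM against 6.63, 8.12, 7.04 and 8.68 CPM (-1.24 ± 0.15, adjusted p = 0.000196). Col11a2, a minor fibrillar collagen chain, fell from 5.52 ± 1.42 to 2.25 ± 0.381 CPM (-1.29 ± 0.21, adjusted p = 0.00471). The median of the extracellular matrix list was -0.11.

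Several enzymes outside the lists fell. Aldh9a1, an aldehyde dehydrogenase of carnitine synthesis, was at 36.4, 37.9, 36.6 and 38.4 CPM in Ppara-flox and at 20.1, 23.9, 18.5 and 20.3 CPM in PPARα-deficient hearts (-0.85 ± 0.08, adjusted p = 2.58e-05). Hsdl2, a hydroxysteroid dehydrogenase-like protein, fell by 0.79 ± 0.11 on the log2 scale, Dhrs4, a peroxisomal carbonyl reductase, by 0.69 ± 0.09, and Ephx2, the soluble epoxide hydrolase, by 0.76 ± 0.11. Coq3, a methyltransferase of ubiquinone synthesis, fell by 0.77 ± 0.10, and Vwa8, a mitochondrial protein, by 0.70 ± 0.09 (adjusted p = 0.000353 to 0.00228 for these 5). Retsat, the retinol saturase, fell from 60.3 ± 13.9 to 32.1 ± 3.64 CPM (-0.91 ± 0.16, adjusted p = 0.0112), a call lost without Ppara-flox replicate 4 or PPARα-deficient replicate 1 or 2 (adjusted p up to 0.0573). Lpcat3, which remodels phospholipids, fell from 41.3 ± 5.95 to 27.3 ± 1.94 CPM (-0.599 ± 0.10, adjusted p = 0.00892), a call lost without PPARα-deficient replicate 1 (adjusted p = 0.0514).

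Stom, a membrane scaffold protein, fell by 0.75 ± 0.12 on the log2 scale, Paqr9, a membrane receptor family member, by 0.73 ± 0.12, Gna12, a G protein alpha subunit, by 0.70 ± 0.10, and Saraf, a regulator of store-operated calcium entry, by 0.57 ± 0.09. Psap, the precursor of the lysosomal saposins, was at 1275, 1453, 1416 and 1386 CPM in Ppara-flox and at 1121, 1040.2, 1064 and 1047 CPM in PPARα-deficient hearts, a 1.29-fold drop (-0.37 ± 0.06, adjusted p = 0.00264). Nectin2, an adhesion protein, fell by 0.78 ± 0.13, Ttc7 by 0.92 ± 0.15 and Bri3bp by 0.73 ± 0.13. Tymp, thymidine phosphorylase, was at 6.43, 7.399, 2.25 and 8.52 CPM against 1.65, 0.659, 1.45 and 2.08 CPM (-2.07 ± 0.39, adjusted p = 0.0168). Ppara-flox replicate 3 was close to the deficient libraries, and the call held in 3 of the 8 left-out fits, those without Ppara-flox replicate 1 or 3 or PPARα-deficient replicate 4 (adjusted p up to 0.0717 in the others, and 0.0854 by limma-voom). Ilvbl (-0.58 ± 0.11), Adck2 (-0.54 ± 0.11), Isoc2a (-0.42 ± 0.09), Gm10638 (-1.15 ± 0.23) and 2700097O09Rik (-0.73 ± 0.15) were called too, and each call was lost in 6 to 8 of the 8 left-out fits (adjusted p up to 0.189).

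**Figure D4:**
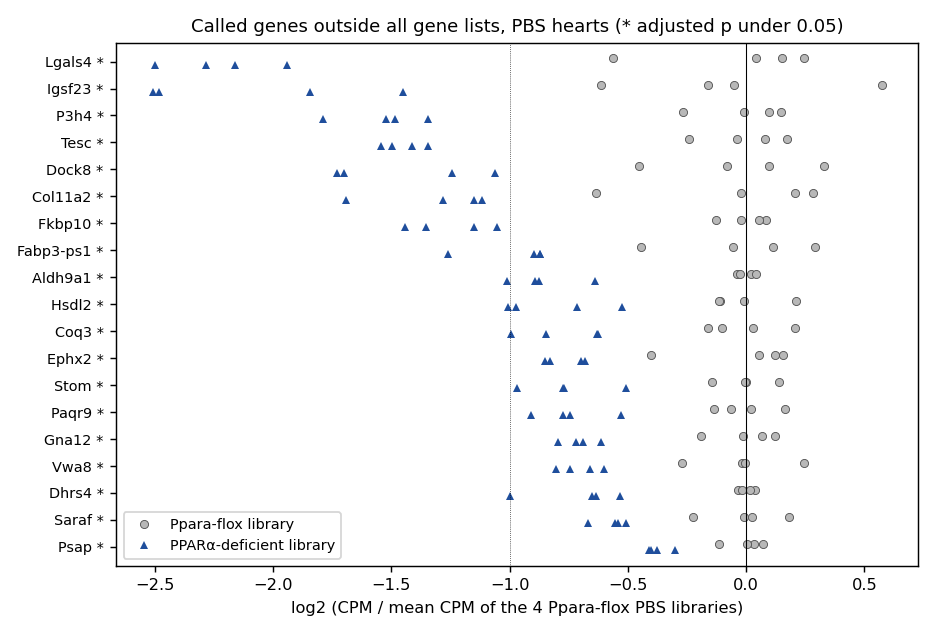
Called genes that are in no list and have an ordinary symbol, 19 of the 20 with the smallest adjusted p (Chrna2 is left off for its zeros), drawn as in the plot of fatty acid oxidation genes. Blue triangles (PPARα-deficient) lie left of all grey circles (Ppara-flox) in every row, from Lgals4 at -2.21 to Psap at -0.37.

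Some calls rest on reads that near copies could share, since the sources used here do not give how such reads were counted. The pseudogenes Gm13910 (-0.68 ± 0.07) and Gm9108 (-0.78 ± 0.11) are 99.8% and 97.6% identical to Hadhb over their length, and Fabp3-ps1 (-0.97 ± 0.16) is 99.3% identical to Fabp3, so these are uncertain as genes of their own. Cpt1b, Tymp, Me1, Acsf2 and Slc22a5 share stretches of 88.8% to 100% identity with Gm44502, Sco2, Gm7049, Gm5540 and Slc22a21, which makes the split of their counts uncertain as well. Gm47547 (chr14:41053653-41061614) was at 32.2, 27.8, 44.99 and 39.98 CPM in Ppara-flox and at 8.94, 10.5, 10.4 and 12.3 CPM in PPARα-deficient hearts (-1.78 ± 0.20, adjusted p = 0.000113). Gm49083 (chr14:43804696-43812383), 97.7% identical to it over 2391 bases, was at 2.404, 2.63, 3.57 and 2.73 CPM in Ppara-flox and at 0 in all 4 PPARα-deficient libraries. It was at least 17.1-fold lower, taking 12 estimated counts, or 3 read pairs, in each deficient library as the limit that a count of 0 allows (counting error only). Gm50321, which the annotation used here does not hold, fell from 157 ± 26.5 to 59.4 ± 3.95 CPM (-1.405 ± 0.18, adjusted p = 0.000354). Gm30735 (chr3:53725477-53733018) was at 4.097, 2.87, 2.3000 and 3.19 CPM against 0.0550, 0.229, 0.166 and 0.359 CPM (-3.94 ± 0.48, adjusted p = 0.000272), and Gm10727, 3206 bases further on the same strand, fell by 2.96 ± 0.42.

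Called genes lay within 100 kb of one another in 10 pairs, and in 9 of the pairs both fell. These included Hadha with Hadhb, Acot2 with Acot1, P3h4 with Fkbp10, Ech1 with Lgals4 (1606 bases apart on the same strand), Ephx2 with Chrna2 (10538 bases, opposite strands), Tymp with Cpt1b (39365 bases, same strand), Elmod3 with Retsat (61 bases, opposite strands) and Dvl2 with Acadvl, which overlap on opposite strands. As 75 of the 81 called genes fell, pairs with both members lower would be the most frequent in any case. How often tested genes in general lie within 100 kb of one another was not counted. Whether reads were counted by strand is not given in the sources used here, so reads of overlapping neighbours cannot be told apart. Elmod3 (-0.51 ± 0.11, adjusted p = 0.0491) and Dvl2, a Wnt signalling protein (-0.64 ± 0.12, adjusted p = 0.0240), each lost the call in 6 of 8 left-out fits (adjusted p up to 0.194 and 0.112). Dvl2 held without PPARα-deficient replicate 1 or 2, and Elmod3 without Ppara-flox replicate 1 or PPARα-deficient replicate 4. In the remaining pair Acsf2 fell while Epn3, 57127 bases away on the same strand, rose.

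Of the 6 genes that rose, Esr1 and Abat held in all 8 left-out fits. Esr1 (chr10:4611593-5005614), the estrogen receptor alpha gene, was at 0.512, 0.0585, 0.0517 and 0.285 CPM in Ppara-flox and at 3150.1, 2859, 3068 and 3201 CPM in PPARα-deficient hearts (13.73 ± 0.79, adjusted p = 7.93e-08). Of the other 5 tested genes of the estrogen list 0 were called, whether by edgeR, DESeq2 or limma-voom, and 0 reached an unadjusted p under 0.05, while Esr2 and Pgr, the second estrogen receptor and the progesterone receptor, were at 0 in all 8 libraries. Abat (chr16:8513429-8621568), GABA transaminase, was at 14.6, 13.1, 16.7 and 16.8 CPM against 30.2, 31.1, 32.7 and 28.9 CPM, 2.003-fold higher (1.002 ± 0.13, adjusted p = 0.000354).

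A1cf and 9130016M20Rik were at 0 in all 4 Ppara-flox libraries. A1cf (chr19:31868764-31948995), an RNA-binding cofactor of apolipoprotein B editing known from liver and gut, was at 3.59, 2.18, 3.75 and 0.747 CPM in PPARα-deficient hearts, at least 15.3-fold higher by the same limit (adjusted p = 0.0263). 9130016M20Rik was at 1.196, 0.390, 1.33 and 0.862 CPM, at least 5.62-fold higher (adjusted p = 0.0229). Each held in 1 of the 8 left-out fits, A1cf without PPARα-deficient replicate 4 and 9130016M20Rik without replicate 2 (adjusted p up to 0.0710 and 0.0711 in the others), and limma-voom gave 0.249 for A1cf. The RefSeq gene table lists 9130016M20Rik among the synonyms of A1cf, beside the names alpha-MHC-MerCreMer and MerCreMer. MerCreMer is a Cre recombinase fused to mutated mouse estrogen receptor domains, whose gene is Esr1, and is used for inducible deletion in heart muscle. A pseudogene inside A1cf, Gm19241, was at 0 in all Ppara-flox libraries and at 0.234, 0.0673, 0.401 and 0.172 CPM in PPARα-deficient ones (adjusted p = 0.0627, but 0.00257 by DESeq2 and 0.0321 by limma-voom). The 3 other protein-coding genes tested within 500 kb of A1cf had log2 fold changes of 0.08 to 0.37 and 0 were called by edgeR or DESeq2. Whether counts at Esr1 and A1cf come from a transgene was not tested.

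The last 2 genes that rose were Epn3 and Fcgr4. Epn3 (chr11:94489599-94499974), an endocytosis adaptor, was at 26.7, 35.8, 29.6 and 30.4 CPM in Ppara-flox and at 49.4, 51.7, 47.1 and 62.98 CPM in PPARα-deficient hearts (0.78 ± 0.15, adjusted p = 0.0279). Its call held in 2 of the 8 left-out fits, those without Ppara-flox replicate 2 or PPARα-deficient replicate 3 (adjusted p up to 0.113 in the others). Fcgr4, an antibody receptor of myeloid cells, was at 0.398, 0.497, 0.478 and 0.626 CPM against 1.21, 0.807, 1.3 and 1.01 CPM (1.11 ± 0.21, adjusted p = 0.0158). Its call held without Ppara-flox replicate 4 or PPARα-deficient replicate 2 or 4 (adjusted p up to 0.0700 in the other 5 fits, and 0.743 by limma-voom). Beside it, 0 of 13 macrophage markers were called with edgeR, DESeq2 or limma-voom (0 below 0.05 before adjustment), and their summed level was 323 to 405 CPM in Ppara-flox and 368 to 433 CPM in PPARα-deficient libraries. The part of such cells in the rise of Fcgr4 was not tested.

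The 14 lists of cell type markers, 97 genes, gave 0 calls (5 with an unadjusted p under 0.05, 1 each by DESeq2 and limma-voom). Over all genes tested 0.433% were called and 5.57% had an unadjusted p under 0.05. The marker counts are near these shares and do not show that cell composition was the same. Cardiomyocyte markers summed to 68465 to 74202 CPM in Ppara-flox and 64467.5 to 70429 CPM in PPARα-deficient libraries, and Myh6 had a log2 fold change of -0.11 ± 0.08. Nppa, the atrial natriuretic peptide gene, which stressed ventricles also express, was at 121, 151, 95.8 and 152 CPM against 226, 328, 283 and 185 CPM. The groups did not overlap, and it was not called (0.98 ± 0.21, adjusted p = 0.0611, but 0.000806 by DESeq2 and 0.0498 by limma-voom). Of the 5 tested atrial markers, Nppa among them, 4 had a negative fold change, and the median was -0.10. The part of atrial tissue in the Nppa difference was not tested.

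Inflammatory cytokines, chemokines and NF-kB targets gave 0 calls among 45 genes (14 higher and 0 lower before adjustment, 3 higher by DESeq2, 0 by limma-voom), with a median of 0.55. The mean log2 CPM of the list was 0.02 to 0.30 in the Ppara-flox libraries and 0.46, 0.18, 0.85 and 1.62 in the PPARα-deficient ones, with replicate 4 highest. Saa3, an acute-phase protein, was at 0.114, 0.0292, 0 and 0 CPM against 0.179, 0.820, 0.373 and 0.388 CPM (adjusted p = 0.0522). Il6, a cytokine, was at 0 in all Ppara-flox libraries and at 0.234, 0, 0.124 and 0.804 CPM in the deficient ones (adjusted p = 0.0745). Both were called by DESeq2. Neutrophil markers summed to 2.46 to 3.63 CPM in Ppara-flox and 1.32 to 8.96 CPM in PPARα-deficient libraries, with the defining marker Ly6g at 0 throughout, and their part in these values was not tested.

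The genes that fell also varied among libraries of 1 genotype. Ppara-flox replicate 1 was the lowest of the 4 control libraries in 59 of the 75 genes, and replicate 4 the highest in 44. Among PPARα-deficient libraries replicate 4 was the highest in 37. The mean log2 CPM of the 75 genes was 5.92, 6.18, 6.17 and 6.29 in Ppara-flox and 4.79, 4.81, 4.88 and 4.99 in PPARα-deficient libraries. Without Ppara-flox replicate 1 the test called 81 genes lower and 7 higher, and without each other library 61 to 73 lower, with 60 of the 75 called in all 8 fits. The column headers carry sample numbers in 2 series (957 to 971 for replicates 1 and 2, 1069 to 1075 for replicates 3 and 4), whose meaning is not stated. Within each series alone, with 2 libraries of each genotype, all 75 genes kept a negative and all 6 a positive fold change. The first series alone called 24 genes lower, of which 16 were among the 75 and 4 in the fatty acid oxidation list, and 2 of the 6 higher. The second called 32 lower, of which 27 were among the 75 and 10 in that list, and 1 of the 6 higher.

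In hearts given LPS, whose libraries are not among the 8 above, the same genotype comparison called 159 genes lower (0.85% of those tested) and 72 higher (0.385%). Both comparisons came from the same fit of all 16 libraries and shared its filter and its estimate of the spread, so their calls are not independent. Of the 75 genes that fell under PBS, 73 had a negative fold change under LPS and 63 were called lower there, which is 84.0% of the PBS list and 39.6% of the LPS list. Over all genes 48.5% had a negative fold change under LPS. The exceptions were Tymp (0.53 ± 0.38 under LPS) and Col11a2 (0.12 ± 0.21). Of the 6 genes that rose, all 6 had a positive fold change under LPS and 3 were called. A test of whether the genotype difference itself differed between PBS and LPS called 0 genes (0%), with a smallest adjusted p of 0.0696. Of the 18713 genes tested 1075 had an unadjusted p under 0.05, 17 of them among the 81. The 81 were chosen by their PBS difference, which enters this test, so these counts cannot be compared. LPS samples carry other header numbers than PBS samples, so treatment and number series cannot be told apart.

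For single genes the values under PBS and LPS can be set side by side. Ppara had a log2 fold change of -1.79 ± 0.28 under PBS and -0.50 ± 0.27 under LPS (adjusted p = 0.599 for the difference). In the LPS comparison it was not called (adjusted p = 0.651). Its level in Ppara-flox hearts was 50.2 ± 9.86 CPM under PBS and 11.3 ± 3.31 CPM under LPS. In PPARα-deficient hearts it was 14.6 ± 2.58 and 7.98 ± 3.38 CPM. The smaller ratio under LPS thus comes with a lower level in the controls. For Esr1 the log2 fold changes were 13.73 ± 0.79 and 8.54 ± 0.69 (adjusted p = 0.174 for the difference). Its level in PPARα-deficient hearts was 3069 ± 150 CPM under PBS but 83.4 ± 58.3 CPM under LPS. In Ppara-flox hearts it was 0.227 ± 0.219 and 0.226 ± 0.205 CPM. The cause of the lower level under LPS was not tested. Plin5 had log2 fold changes of -1.74 ± 0.21 under PBS and -2.71 ± 0.22 under LPS, Ucp3 -2.403 ± 0.36 and -3.62 ± 0.38, and Fbp2 -3.05 ± 0.31 and -1.76 ± 0.29.

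**Figure D5:**
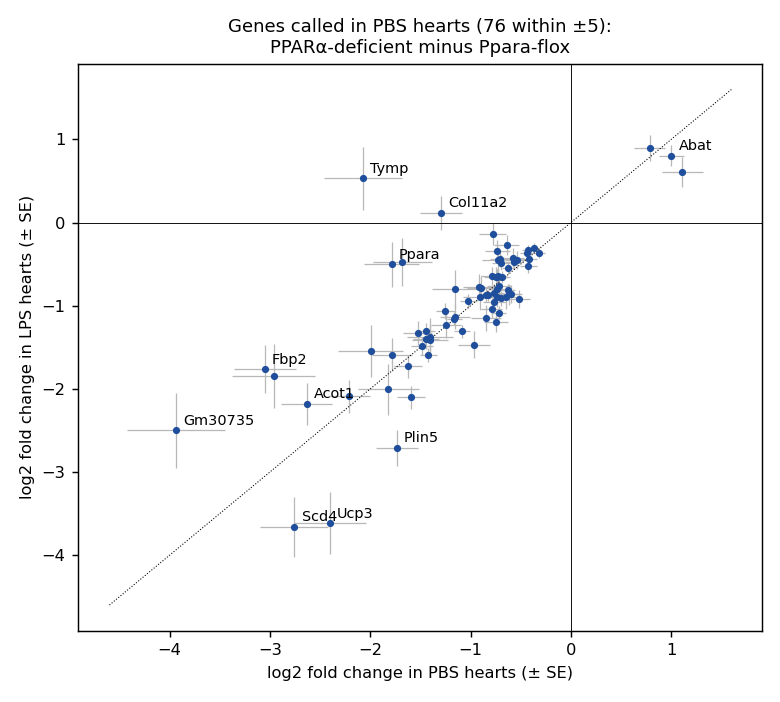
Log2 fold change, PPARα-deficient minus Ppara-flox, of 76 of the 81 genes called in PBS hearts (those within ±5), in PBS hearts on the horizontal and in LPS hearts on the vertical axis, with standard errors as bars and a dotted line of equal values. Most points lie along the line at the lower left, and Tymp and Col11a2 lie above 0 on the vertical axis.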

How the data were processed

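RNA of 16 mouse heart samples was sequenced from stranded libraries, per the labels' protocols. The authors deposited estimated counts per gene symbol, 1 table per sample. The submitters' processing notes name the build GRCm38 and the tools HISAT, StringTie 1.3.3b, fastp 0.23.2 and DESeq2 1.30.1, with no role given for any, so strand setting and treatment of shared reads are not given in the sources used here. Lines with repeated symbols (116) were summed and 27 date-like symbols, 0.0644% to 0.0738% of counts, were left out, which left 55278 symbols. Counts were rounded to whole numbers.

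Genes were kept by filterByExpr over the 4 groups, scaled by TMM and fitted over all 16 libraries with edgeR 4.0.16 (glmQLFit and glmQLFTest, R 4.3.3). Alternatives used DESeq2 1.42.0 and limma-voom 3.58.1, other scaling, filters and thresholds, the PBS libraries alone, a replicate block, and each PBS library left out. Fits by header number series were added after seeing the data. The scripts were tested on simulated data. Of genes given a log2 change of 0.5 the PBS comparison recovered 23.9%, of 1 it recovered 72.7% and of 2 it recovered 95.5%. Of the simulated calls 1.55% were false. Genes of low level were not among those changed. A gene not called may therefore still differ, most of all by a small amount.

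Genes to name were Ppara and the 3 nearest tested coding genes on each side of it, genes called higher, the 15 lower with the smallest adjusted p and the 10 with the lowest fold change, called members of each list or the 2 with the smallest p, the 20 called genes in no list with the smallest adjusted p, and Myh6. Gene models without an ordinary symbol (10 of the called) fell outside this rule. These models and other genes outside the rule (such as Cpt1a, Cd36, Echs1, Tymp, Retsat and Gm20716) were chosen after their values were seen. Members and lists were chosen with earlier results of these data known. Positions are from GENCODE vM21 (GRCm38), promoters from RefSeq (GRCm38.p6). Near copies were sought among transcripts (at least 85% identity over 200 bases).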

Additional observations from a re-analysis of the deposited data

Results flagged for a closer look

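In 12 of 210 groups of 4 libraries a single library stood apart by Dixon's test at the 95% level, and chance alone marks about 1 group in 20. Ppara-flox replicate 1 was the lowest for Acaa2 (560 CPM, the others 718 to 738), Hadh (455 CPM, 540 to 555), Ech1 (739 CPM, 901 to 917) and Acat1 (437 CPM, 491 to 498). Ppara-flox replicate 4 was the highest for Acadl (992 CPM, 875 to 895) and Bri3bp (72.7 CPM, 60.3 to 61.5), and replicate 2 for Gm10727 (2.75 CPM, 1.5 to 1.71). PPARα-deficient replicate 4 was the highest for Decr1 (141 CPM, 119 to 122) and Acot4 (1.48 CPM, 0.853 to 0.861) and the lowest for Fabp3-ps1 (11.4 CPM, 14.6 to 14.9). PPARα-deficient replicate 1 was the lowest for Cpt1b (374 CPM, 410 to 414), and replicate 2 the highest for Ilvbl (18.9 CPM, 15.7 to 15.8).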

How the results depend on the processing

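All 75 genes that fell kept a negative fold change in every alternative that fitted them (74 of the 75 remained under the filter of at least 1 CPM in 8 libraries). DESeq2 called 48 genes higher and 135 lower, among them all 6 and all 75, and limma-voom shared 4 and 71. With the 8 PBS libraries alone 63 of the 75 and 5 of the 6 kept their call. The number called higher was 12 with the 8 PBS libraries alone, 3 with the replicate block and 2 at an adjusted p under 0.01. The number called lower was 24 in the first header number series alone, 32 in the second and 33 with a 2-fold minimum, and for fatty acid oxidation genes it was 4, 10 and 7. Leaving out 1 PBS library gave 5 to 8 higher, 61 to 81 lower and 15 to 18 fatty acid oxidation genes. The sign turned for Ppard without PPARα-deficient replicate 1 (-0.0634, against at most 0.138 without another library), for Echs1 in the second series (-0.0325) and without PPARα-deficient replicate 1 (-0.00987, against at most 0.0679 without another library), and for Cpt1a in the second series (0.00610), none of them called. The causes were not tested, beyond the fewer libraries in each series.

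Deviations of replicates with the same number in both genotypes were hardly correlated (0.0089, 0.058, 0.0074 and 0.055). For different numbers the correlations were -0.086 to 0.048. Whether the numbers pair the samples cannot be told from these values. With the replicate number as a block 3 genes were called higher, 53 lower and 14 of the fatty acid oxidation genes, with 2 and 52 of the calls above among them. The estimated counts exceed the likely number of read pairs about 4 times. Division by 4 kept all 75 and 4 of the 6. Genes under about 1 CPM rest on few read pairs.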
